A study of Mus musculus with 11 samples.

Results

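Type I interferon response genes were followed across 11 polyadenylated RNA libraries of EC4, a mouse liver cancer cell line whose MYC state and methionine supply were varied in a study of methionine metabolism in tumours driven by MYC. The set holds 34 genes, listed by name as parts of interferon signalling or as genes that interferon induces, out of 55416 gene identifiers measured. All 34 were found among the identifiers, and 19 of them were among the 12909 genes whose mean normalized count reached 10, the level from which genes were tested. There were 3 libraries of MYC high cells in 10 µM methionine and 2 of MYC high cells in 200 µM methionine, numbered 2 and 3, with replicate 1 of that group not analysed here. MYC low cells gave 3 libraries in 10 µM and 3 in 200 µM methionine. Libraries are called by their replicate numbers. All cells were grown in DMEM with methionine at 200 µM and then kept for 24 h in DMEM at the stated methionine level, so the groups at 200 µM stayed at the level of the growth medium. The labels give the genotype as MYC on for MYC high cells and MYC off for MYC low cells. They name no agent that lowers MYC, so an effect of such an agent and one of the MYC state cannot be told apart. They also name no interferon treatment and no infection in any group. EC4 is 1 line, and it is not stated whether its replicates were cultured separately, so p-values rest on a spread between libraries that may be technical only.

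Type I interferons are secreted proteins that bind the receptor chains IFNAR1 and IFNAR2. The kinases JAK1 and TYK2 on the inner side of that receptor phosphorylate STAT2, which joins IRF9 in the complex ISGF3, and ISGF3 binds a promoter element named ISRE (interferon-stimulated response element) and switches on a large set of antiviral genes. Cytoplasmic sensors of foreign RNA, such as the products of Ddx58 and Ifih1, act upstream and start the production of interferon, while IRF1 and IRF7 are transcription factors that widen the response. In liver, hepatocytes carry this pathway as a defence against hepatitis viruses, and many cells keep a low level of it without infection.

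Most of the set was expressed at a low level, and it was lowest in MYC high cells on 200 µM methionine. Ifit3 and Ifi44 had 0 reads in all 11 libraries. Isg15, Ifit1, Oas1a, Oas2, Oasl2, Rtp4 and Zbp1 had 1 to 10 reads over all libraries together, and Oasl1, Mx1, Mx2, Ddx58, Dhx58 and Ifitm3 had more but stayed under the filter. A count of 0 in a library allows up to 3 reads, or 2.65 to 3.43 normalized counts, and such floors cover counting error only. Members with a mean of at least 10 normalized counts numbered 17 in MYC high cells on 10 µM, 10 in MYC high cells on 200 µM, 18 in MYC low cells on 10 µM and 15 in MYC low cells on 200 µM. Members without a single read numbered 5 in MYC high cells on 10 µM, 12 in MYC high cells on 200 µM, 3 in MYC low cells on 10 µM and 8 in MYC low cells on 200 µM. MYC high cells on 200 µM have 2 libraries and the other groups 3, so 0 reads is likelier there at an equal level. A floor of 3 reads over the group is a mean of 1.65 normalized counts there, against 0.911 to 1.01 in the other groups. Of the 19 tested members, 18 had their lowest group mean in MYC high cells on 200 µM, and 13 had their highest in MYC low cells on 10 µM. A gene could pass the filter through the group in which it was high, so counts over the tested members describe those genes and not the whole set. The same counts over all genes were not made, so this order of groups is not shown to be particular to the members.

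**Figure D1:**
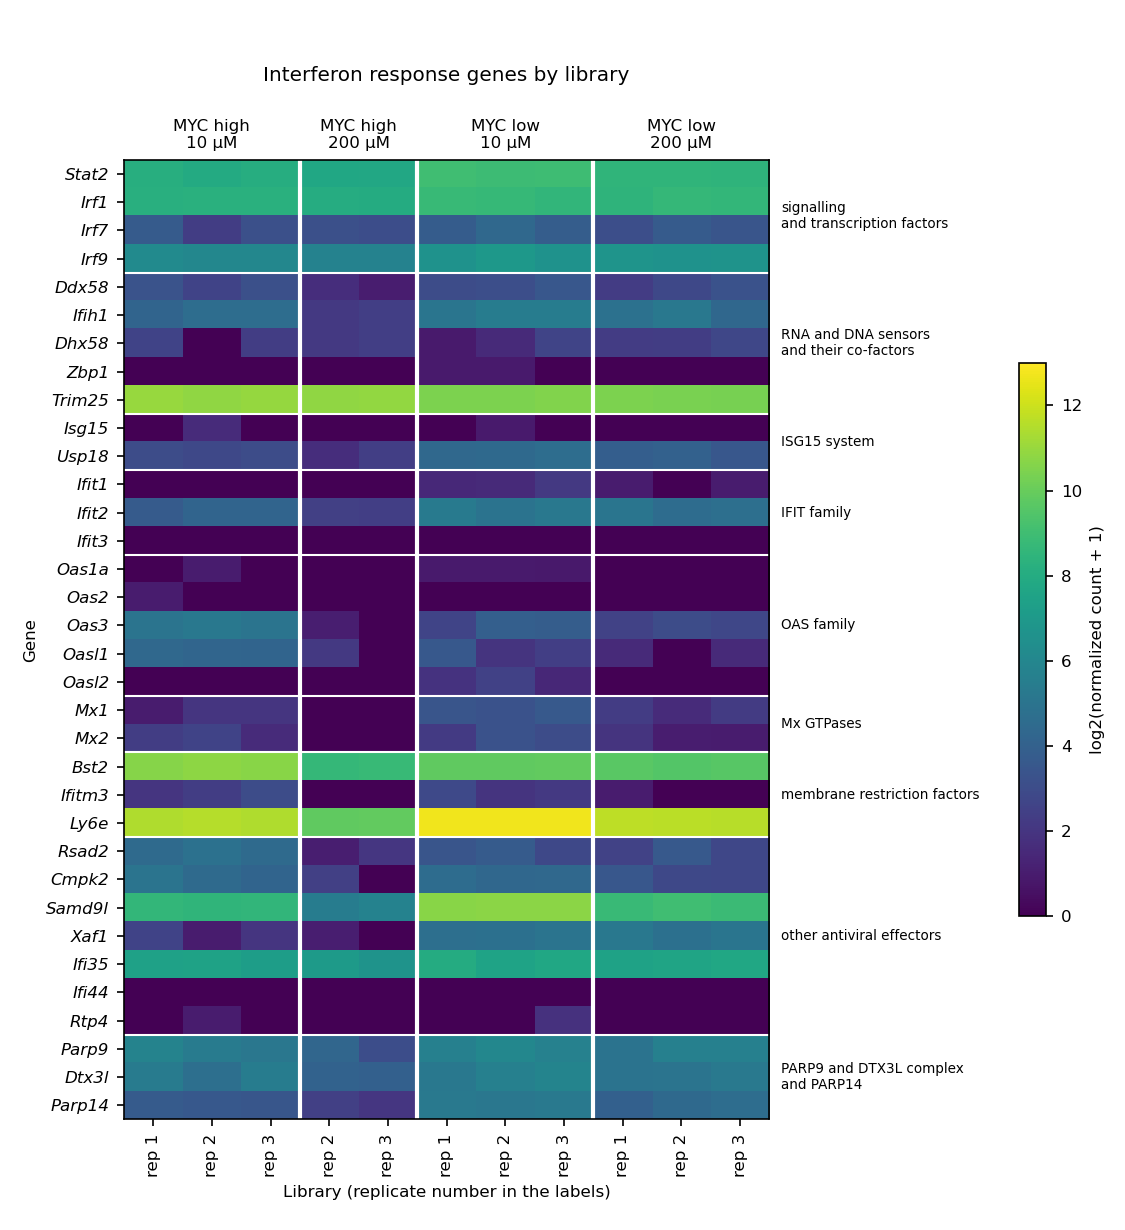
Heat map of all 34 genes by library. Colour gives log2 of the normalized count plus 1, rows are genes ordered by role, and columns are the 11 libraries with MYC high cells left of MYC low cells and 10 µM left of 200 µM methionine. The pair of columns of MYC high cells on 200 µM is the lowest for 18 of the 19 tested genes by group mean, and Ifit3 and Ifi44 are at 0 throughout.

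Levels of different genes can be compared per kilobase of exon. On that scale Bst2 and Ly6e, which both encode membrane-anchored antiviral proteins, were the most abundant members. Bst2 stood at 1847 and 458 normalized counts per kilobase in MYC high cells at 10 and 200 µM, and at 1022 and 849.8 in MYC low cells. Ly6e stood at 760.5 and 247 in MYC high cells and at 1786 and 847 in MYC low cells. Next came Trim25, a ubiquitin ligase, at 234 to 336 normalized counts per kilobase over the 4 groups, and Samd9l, an inhibitor of viral growth, at 8.78 to 313.

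Each library had 10858936 to 13085689 recovered reads, spread over 17395 to 18462 genes. The mouse Myc transcript averaged 336 ± 39.2 normalized counts in MYC high, against 336 ± 13.5 in MYC low cells on 10 µM (SD, n = 3 each), with a 95% interval of the log2 difference of −0.13 to 0.12, and since it did not separate the MYC states there, directions on 10 µM depend on the labelling alone. At 200 µM it averaged 2089 ± 106 in the MYC high (SD, n = 2) and 1136 ± 31.3 in the MYC low libraries (SD, n = 3), and reads of a MYC transgene would be counted here only in part. Of 13 hepatocyte and fetal liver markers 4 passed the filter (Afp, Apoe, Krt8 and Krt18), and Alb was at 0. Of 18 leukocyte markers 9 were at 0 everywhere, Ptprc and Cd3e among them, and 3 passed the filter, Cd68, Csf1r and Cd14. The summed level of the leukocyte list was 1061 to 1133 normalized counts in MYC high cells on 10 µM, 649 to 674 in MYC high cells on 200 µM, 1302 to 1415 in MYC low cells on 10 µM and 920.4 to 963 in MYC low cells on 200 µM. The 3 tested markers did not move together. At 10 µM Cd68 was higher in MYC high cells (log2 1.15) while Csf1r (log2 −0.77) and Cd14 (log2 −0.94) were lower, and in MYC high cells Cd68 and Csf1r were higher at 10 than at 200 µM (log2 3.97 and 0.82) while Cd14 was lower (log2 −0.91). The summed level of the 34 interferon genes had the same order of groups as the leukocyte sum, with 7854 to 8010.4 normalized counts in MYC high cells on 10 µM, 3954 to 4030.3 in those at 200 µM, 12321 to 12465 in MYC low cells on 10 µM and 6946 to 7167 in those at 200 µM, and the leukocyte list's part in the results below was not tested. That order is not particular to these 2 lists, as the hepatocyte and fetal liver sum had it too. That sum was 12344 to 12803 in MYC high cells on 10 µM and 8612 to 9021 in those at 200 µM. In MYC low cells it was 20875 to 21462 on 10 µM and 10713 to 10911 at 200 µM. The interferon sum is weighted to abundant genes, with Ly6e alone averaging 6758 in MYC low cells on 10 µM. None of 7 endothelial and 10 fibroblast markers passed the filter. In such bulk libraries, fewer cells of a type and less RNA per cell cannot be told apart.

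The question of how the MYC state goes with these genes was addressed in each medium. In both media most tested members were lower in MYC high than in MYC low cells. At 10 µM methionine 12 of the 19 were lower, Oas3, Bst2, Rsad2 and Trim25 were higher, and Parp9, Dtx3l and Cmpk2 did not pass, beside 35.8% of all tested genes that were lower and 35.7% that were higher. The median log2 difference was −0.65 over the 19 members and 0.0015 over all tested genes. At 200 µM 17 were lower, Trim25 was higher and Irf7 did not pass, beside 37.6% of all genes lower and 36.8% higher. The median there was −1.75 over the members and −0.0031 over all genes, and −1.40 with Oas3 and Xaf1, which had 1 read in the MYC high libraries, placed at the counting limit nearest to no change. A gene is said to rise or fall here where limma's Benjamini-Hochberg adjusted p over all 12909 genes was under 0.05, and log2 differences and folds are on the scale of log2 of the normalized count plus 1, which understates changes of low genes.

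The MYC comparisons at 10 and at 200 µM share no library. Stat2, Irf1, Irf9, Ifit2, Xaf1, Samd9l, Ifi35, Ifih1, Usp18, Parp14 and Ly6e were lower in MYC high cells in both media, 11 genes that made up 91.7% of those lower at 10 µM and 64.7% of those lower at 200 µM. The share of all tested genes lower in both media was not counted, so this overlap is not shown to be particular to the members. Oas3, Bst2 and Rsad2 were higher in MYC high cells on 10 µM and lower at 200 µM. Trim25 was higher in MYC high cells in both media.

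**Figure D2:**
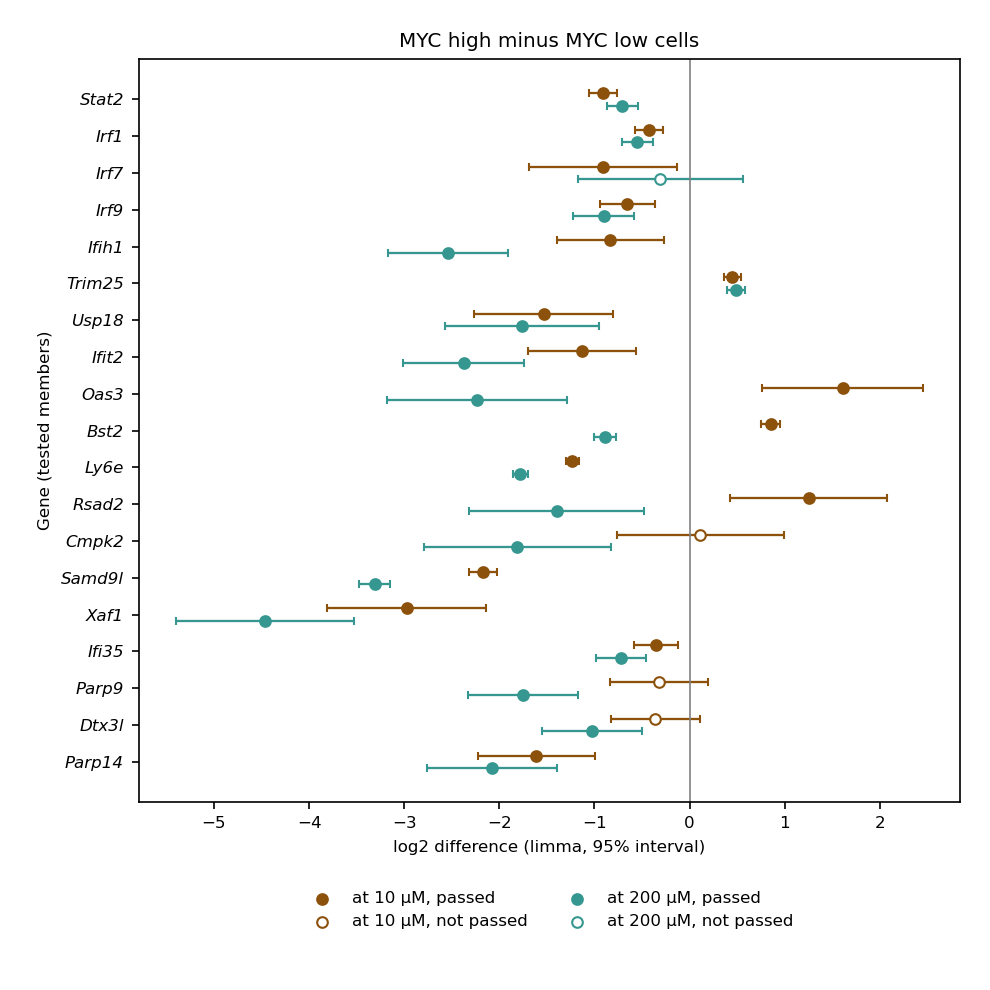
Log2 differences between MYC high and MYC low cells for the 19 tested members. Points are limma estimates at 10 µM (brown) and 200 µM methionine (teal), lines are 95% intervals, filled points passed at an adjusted p under 0.05, and values left of 0 are lower in MYC high cells. Samd9l lay at −2.18 and −3.31, while Oas3, Bst2 and Rsad2 lay right of 0 at 10 µM and left of it at 200 µM.

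The question of how methionine goes with the same genes was addressed in each MYC state. Most tested members were higher at 10 than at 200 µM in MYC high cells, and fewer passed in MYC low cells. In MYC high cells 16 of the 19 tested members were higher at 10 than at 200 µM, 0 were lower, and Irf7, Irf9 and Trim25 did not pass, beside 37.9% of all genes higher and 37.9% lower. The median log2 difference was 1.33 over the members and −0.0039 over all genes. In MYC low cells Stat2, Bst2, Samd9l, Parp14, Cmpk2 and Ly6e were higher at 10 µM, 0 were lower and 13 did not pass, beside 29.4% of all genes higher and 29.9% lower, with a median of 0.48 over the members and 0.0011 over all genes. The number of members lower at 10 µM was also 0 at an unadjusted p under 0.05 with limma and with edgeR and DESeq2 on the recovered reads, in both MYC states. In MYC high cells the members higher at an adjusted p under 0.05 numbered 16 with limma, 14 with edgeR and 13 with DESeq2. In MYC low cells they numbered 6, 9 and 6. The libraries of MYC high cells on 200 µM enter both the MYC comparison at 200 µM and the methionine comparison in MYC high cells, so a low level in them appears in both.

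**Figure D3:**
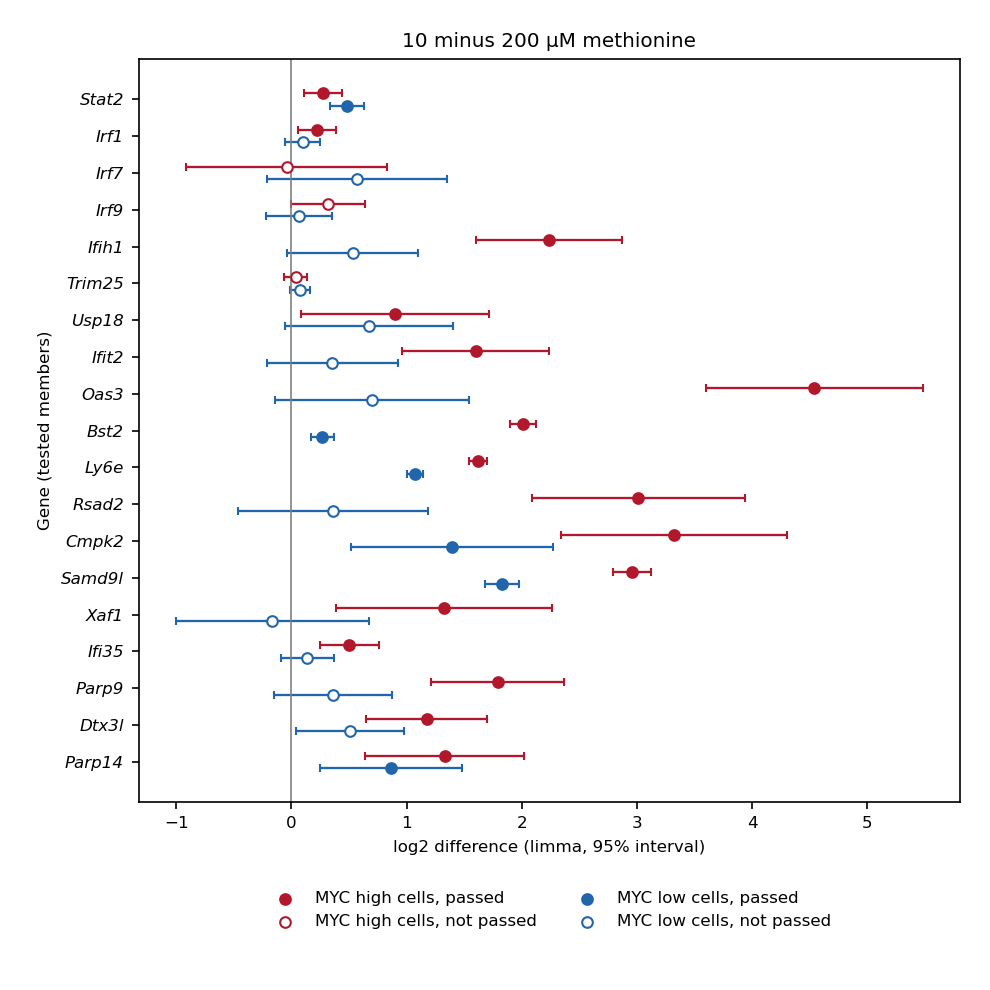
Log2 differences between 10 and 200 µM methionine for the 19 tested members. Points are limma estimates in MYC high (red) and MYC low cells (blue), lines are 95% intervals, filled points passed at an adjusted p under 0.05, and values right of 0 are higher at 10 µM. Oas3 lay at 4.54 in MYC high, against 0.70 in MYC low cells, and Trim25 lay close to 0 in both.

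Whether the methionine response differed between the MYC states was tested as an interaction, with the response of MYC low cells subtracted from that of MYC high cells. The response was larger in MYC high cells for Ifit2, Oas3, Bst2, Xaf1, Samd9l, Rsad2, Ifih1, Parp9, Cmpk2 and Ly6e. These 10 of 19 stand beside 31.0% of all genes with a positive and 29.4% with a negative interaction, and the median was 0.67 over the members and 0.0105 over all genes. The number of members with a negative interaction was 0 at an adjusted and at an unadjusted p under 0.05 with limma, edgeR and DESeq2. The number with a positive interaction at an adjusted p under 0.05 was 10 with limma, 9 with edgeR and 7 with DESeq2. For 9 members the interaction did not pass, and their responses are not shown to be alike.

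Among the signalling and transcription factors, Stat2, Irf1 and Irf9 were lower in MYC high cells in both media. Stat2 (ENSMUSG00000040033), the STAT protein specific to type I and type III interferon signalling, had 280.1, 242 and 271 normalized counts in MYC high cells on 10 µM and 215 and 221 in those at 200 µM. In MYC low cells it had 516, 480.1 and 498 at 10 µM and 359, 358 and 350.3 at 200 µM. The 4 groups did not overlap, with MYC high cells below MYC low cells in each medium. Stat2 was 1.88-fold lower in MYC high cells on 10 µM (log2 −0.91, SE 0.072, adjusted p = 6.20e-14) and 1.63-fold lower at 200 µM (log2 −0.71, SE 0.081, adjusted p = 7.61e-10). It was 1.21-fold higher at 10 than at 200 µM in MYC high cells (adjusted p = 0.00248) and 1.40-fold higher in MYC low cells (adjusted p = 3.96e-07), without an interaction that passed (−0.21, adjusted p = 0.0993).

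Irf9 (ENSMUSG00000002325), the DNA-binding subunit of ISGF3, had 72.3, 63.8 and 64.8 normalized counts in MYC high cells on 10 µM and 52.6 and 54.1 in those at 200 µM. The MYC low libraries had 99.4, 121 and 97.9 at 10 µM and 103, 98.2 and 101 at 200 µM. All MYC high libraries lay below all MYC low libraries, and the MYC low groups overlapped. The difference between MYC states was −0.65 on the log2 scale (SE 0.14, adjusted p = 9.78e-05) at 10 µM and −0.91 at 200 µM (adjusted p = 3.61e-06). Methionine did not change Irf9 past the threshold in MYC high (0.32, adjusted p = 0.0643) or MYC low cells (0.07, adjusted p = 0.696), though it passed in MYC high cells when libraries were scaled to their totals (0.37, adjusted p = 0.0341). Irf9 shares 123 exon bases, 2.28% of its own, with Rnf31 on the same strand.

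Irf1 (ENSMUSG00000018899), a transcription factor that interferon gamma also induces, had 289, 309 and 308 normalized counts in MYC high cells on 10 µM and 259 and 259 in those at 200 µM. MYC low cells gave 428, 411 and 382 at 10 µM and 348, 405 and 388 at 200 µM. Again every MYC high library was below every MYC low library. Irf1 was 1.34-fold lower in MYC high cells on 10 µM (adjusted p = 2.89e-06) and 1.46-fold lower at 200 µM (adjusted p = 2.06e-07). Its rise of 1.16-fold at 10 µM in MYC high cells (adjusted p = 0.0156) did not pass without library 2 (adjusted p = 0.0529) or library 3 (adjusted p = 0.0564) of MYC high cells on 200 µM. It did not pass in MYC low cells (0.10, adjusted p = 0.256). Of the exon bases of Irf1, 3.40% overlap Gm17334 on the opposite strand. Irf7 (ENSMUSG00000025498), which drives the production of interferon alpha, had 12.2, 4.05 and 8.10 normalized counts in MYC high cells on 10 µM and 8.0 and 7.43 in those at 200 µM. Levels in MYC low cells were 12.7, 19.9 and 13.2 at 10 µM and 7.80, 12.3 and 9.68 at 200 µM. It was lower in MYC high cells on 10 µM (log2 −0.91, SE 0.38, adjusted p = 0.0329), where the groups did not overlap, but not without library 2 of MYC high cells on 10 µM (−0.54, adjusted p = 0.226) or library 2 of MYC low cells on 10 µM (−0.72, adjusted p = 0.150). The other comparisons of Irf7 did not pass, with −0.31 between MYC states at 200 µM and, between media, −0.04 in MYC high, against 0.57 in MYC low cells. The value in MYC high cells was 0.0025 when libraries were scaled to their totals. Irf7 shares 45 exon bases with the opposite-strand gene Phrf1, which stood at 807 to 1484 normalized counts by group mean, and the strand setting of the counting is not given in the sources used here.

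Of the cytoplasmic RNA sensors only Ifih1 passed the filter. Ifih1 (ENSMUSG00000026896), whose product MDA5 senses long double-stranded RNA, had 17.3, 24.3 and 24.3 normalized counts in MYC high cells on 10 µM and 3.43 and 4.24 in those at 200 µM. The counts of MYC low cells were 32.5, 43.6 and 43.2 at 10 µM and 28.3, 35.8 and 19.4 at 200 µM. The MYC high libraries at 200 µM stood apart below all others. Ifih1 was 5.81-fold lower in MYC high cells on 200 µM (log2 −2.54, SE 0.31, adjusted p = 3.68e-09) and 1.78-fold lower at 10 µM (log2 −0.83, SE 0.28, adjusted p = 0.00817), the second of which did not pass without library 1 of MYC high cells on 10 µM (−0.68, adjusted p = 0.0514). In MYC high cells it was 4.72-fold higher at 10 than at 200 µM (adjusted p = 5.22e-08), against 1.45-fold in MYC low cells (adjusted p = 0.101), and the interaction passed (log2 1.71, SE 0.42, adjusted p = 6.36e-04).

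Ddx58, which encodes the sensor RIG-I, had 9.17, 5.06 and 8.10 normalized counts in MYC high cells on 10 µM and 2.29 and 1.06 in those at 200 µM. Against these, MYC low cells had 7.23, 7.59 and 10.6 at 10 µM and 3.90, 6.14 and 8.71 at 200 µM. Its 3 reads in MYC high cells on 200 µM gave a ratio of MYC low to MYC high of 3.79 (exact 95% counting interval 1.12 to 20.0) in that medium, which edgeR at a filter of a mean of at least 1 did not call (adjusted p = 0.0509) and limma at that filter did (adjusted p = 0.0108). This edgeR test of recovered reads at the lower filter, chosen after the data were seen, found Ddx58 higher at 10 than at 200 µM in MYC high cells (log2 2.09, adjusted p = 0.0204) and not in MYC low cells (log2 0.43, adjusted p = 0.504). By that test 31.4% of 16731 genes were higher at 10 µM in MYC high, against 25.3% in MYC low cells. Dhx58, a regulator of both sensors, had 0 to 5.81 normalized counts per library and passed in no comparison by that test. Zbp1, a sensor of Z-form nucleic acids, had 2 reads in all.

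Trim25 (ENSMUSG00000000275), a ubiquitin ligase that activates RIG-I and is itself inducible by interferon, was the one tested member higher in MYC high cells in both media. It had 2021, 1826 and 1955 normalized counts in MYC high cells on 10 µM and 1860.0 and 1907 in those at 200 µM. MYC low libraries had 1367, 1399 and 1483 at 10 µM and 1393, 1355 and 1284 at 200 µM. Every MYC high library was above every MYC low library. Trim25 was 1.36-fold higher in MYC high cells on 10 µM (log2 0.45, SE 0.043, adjusted p = 8.11e-12) and 1.40-fold higher at 200 µM (log2 0.49, SE 0.048, adjusted p = 1.54e-11). The methionine difference did not pass in MYC high (0.04, 95% interval −0.06 to 0.13) or MYC low cells (0.08, 95% interval −0.01 to 0.16).

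**Figure D4:**
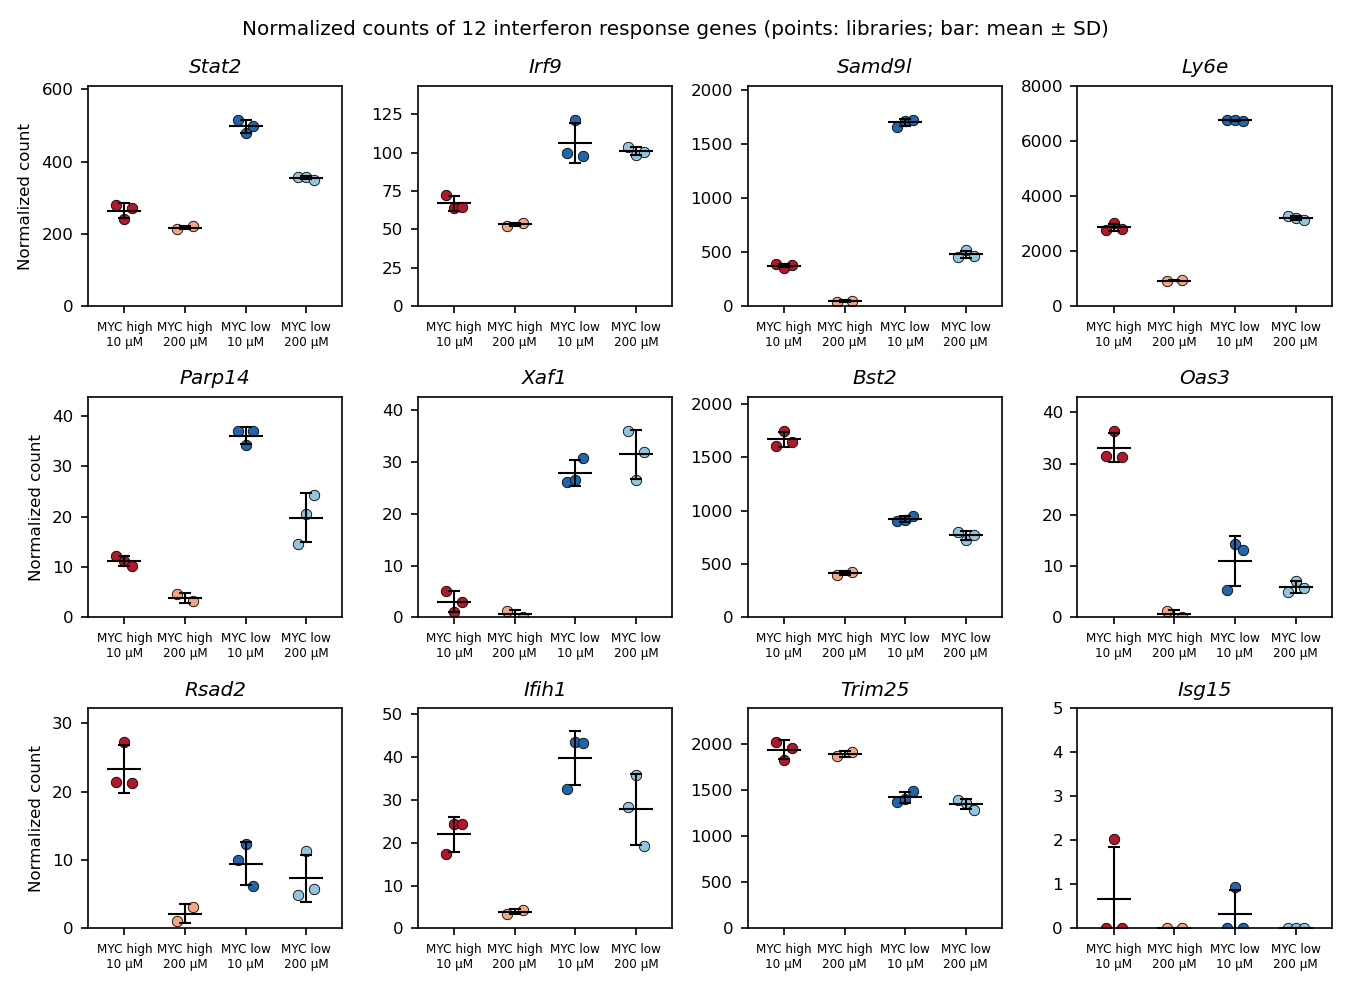
Normalized counts of 12 members by group. Points are libraries, the wide bar is the group mean and whiskers are ± 1 SD (n = 3, and n = 2 for MYC high cells on 200 µM). Trim25 is the one panel with both MYC high groups above both MYC low groups, and Bst2, Oas3 and Rsad2 are highest in MYC high cells on 10 µM and lowest in MYC high cells on 200 µM.

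Promoter windows from RefSeq (build GRCm38.p6, 250 bases before to 50 after the gene start) were found for 24 of the 34 members, 15 of them tested, and as Irf1, Irf9 and Ifit2 have 2 windows each there were 27 member windows. Trim25 is shown because it was the one tested member higher in MYC high cells in both media, and its window was also the one of the 27 with the palindromic E-box CACGTG, the sequence that MYC and MAX bind. This hexamer lies in 7.15% of 32851 promoter windows. Capitals mark it at bases 203 to 208 of the window, whose base 251 is the first of the gene, on the plus strand of chr11:88999153-88999452.
Trim25: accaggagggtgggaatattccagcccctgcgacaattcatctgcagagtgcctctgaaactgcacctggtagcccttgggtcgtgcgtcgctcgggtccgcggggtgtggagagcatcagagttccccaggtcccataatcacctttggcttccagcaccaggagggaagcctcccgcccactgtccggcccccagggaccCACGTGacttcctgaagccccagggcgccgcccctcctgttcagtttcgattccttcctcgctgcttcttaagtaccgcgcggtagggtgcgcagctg
A match is a description of letters and shows no binding, and the window is of an earlier build than that of the counts.

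Isg15, Ifit1 and Ifit3, which are among the most strongly induced genes of an interferon response, had almost no reads. Isg15 (ENSMUSG00000035692), a ubiquitin-like protein that is attached to other proteins, had 2 reads in library 2 of MYC high cells on 10 µM, 1 read in library 2 of MYC low cells on 10 µM and 0 in the other 9 libraries. Ifit3 (ENSMUSG00000074896), which binds its relative IFIT1 and steadies it on foreign RNA, had 0 in all 11. Their promoters are shown because both hold several copies of the ISRE core GAAA-NN-GAAA, searched on both strands, which capitals mark. The core lies in 3.44% of the 32851 windows and in 11 of the 27 member windows, which belong to 5 of the 15 tested members (Stat2, Ifih1, Oas3, Bst2 and Rsad2) and 6 of the 9 untested ones (Isg15, Ifit1, Ifit3, Oas1a, Ddx58 and Ifitm3). In the window of Isg15, on the minus strand of chr4:156200769-156201068, 3 copies overlap. In that of Ifit3, on the plus strand of chr19:34583279-34583578, 2 copies lie on the reverse strand.
Isg15: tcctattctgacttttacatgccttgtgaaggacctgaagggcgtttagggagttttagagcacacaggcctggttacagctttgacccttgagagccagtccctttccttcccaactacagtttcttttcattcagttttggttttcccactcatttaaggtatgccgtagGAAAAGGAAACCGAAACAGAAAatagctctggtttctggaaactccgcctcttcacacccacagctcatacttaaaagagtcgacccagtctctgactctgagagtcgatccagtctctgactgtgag
Ifit3: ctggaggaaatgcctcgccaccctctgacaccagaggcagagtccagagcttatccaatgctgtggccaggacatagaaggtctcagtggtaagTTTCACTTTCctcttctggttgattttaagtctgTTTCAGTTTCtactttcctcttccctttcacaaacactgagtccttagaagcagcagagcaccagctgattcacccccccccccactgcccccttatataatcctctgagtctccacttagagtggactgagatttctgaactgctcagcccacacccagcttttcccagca
The core thus lay in windows of members with many reads and of members at or near 0.

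Usp18 (ENSMUSG00000030107), the protease that removes ISG15 from proteins and dampens signalling at IFNAR2, had 7.13, 6.08 and 7.09 normalized counts in MYC high cells on 10 µM and 2.29 and 4.24 in those at 200 µM. The MYC low libraries had 19.9, 20.9 and 23.8 at 10 µM and 13.7, 15.3 and 10.6 at 200 µM. MYC high libraries were below MYC low libraries throughout. Usp18 was 2.90-fold lower in MYC high cells on 10 µM (log2 −1.54, SE 0.36, adjusted p = 2.58e-04) and 3.39-fold lower at 200 µM (adjusted p = 1.75e-04). Its rise at 10 µM in MYC high cells (log2 0.90, SE 0.40, adjusted p = 0.0413) did not pass with edgeR (adjusted p = 0.143) or DESeq2 (adjusted p = 0.210). With limma it did not pass with a pseudocount of 5 (adjusted p = 0.0922), no filter (0.104) or the replicate block (0.0590). Nor did it pass without library 1 or 3 of MYC high cells on 10 µM (adjusted p = 0.0753 and 0.0744). The same held without library 1, 2 or 3 of MYC low cells on 10 µM (adjusted p = 0.0526, 0.0519 and 0.0551). Without library 2 of MYC high cells on 200 µM the rise was 0.56. Between media in MYC low cells limma did not call a difference (0.67, adjusted p = 0.105) and edgeR did (0.70, adjusted p = 0.0357).

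Ifit2 (ENSMUSG00000045932), an antiviral protein that binds RNA and hinders its translation, was the IFIT gene that could be tested. It had 12.2, 17.2 and 17.2 normalized counts in MYC high cells on 10 µM and 4.57 and 4.24 in those at 200 µM. MYC low cells gave 39.8, 29.4 and 36.2 at 10 µM and 32.2, 23.5 and 26.1 at 200 µM. The 3 levels from lowest to highest were those of MYC high cells on 200 µM, MYC high cells on 10 µM and the MYC low groups, which overlapped each other. Ifit2 was 5.19-fold lower in MYC high cells on 200 µM (log2 −2.38, SE 0.31, adjusted p = 1.68e-08) and 2.19-fold lower at 10 µM (adjusted p = 5.11e-04). It was 3.03-fold higher at 10 than at 200 µM in MYC high cells (adjusted p = 2.16e-05) and did not pass in MYC low cells (0.35, adjusted p = 0.283), with an interaction of 1.25 (adjusted p = 0.0106) that DESeq2 did not call (adjusted p = 0.0609). Ifit1 had 8 reads in MYC low cells on 10 µM, 2 in MYC low cells on 200 µM and 0 in MYC high cells. Set against a floor of 3 reads over the group, Ifit1 was 2.39-fold lower in MYC high cells on 10 µM. That fold leaves out the counting error of the 8 reads.

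The OAS family makes the messenger 2-5A, which activates the RNA-degrading enzyme RNase L, and Oas3 is the member with the largest protein. Oas3 (ENSMUSG00000032661) had 31.6, 36.5 and 31.4 normalized counts in MYC high cells on 10 µM and 1.14 and 0 in those at 200 µM. Levels in MYC low cells were 5.42, 14.2 and 13.2 at 10 µM and 4.88, 7.16 and 5.81 at 200 µM. The level in MYC high cells was thus the highest of the 4 groups at 10 µM and the lowest at 200 µM, without overlap with MYC low cells, whose own groups overlapped. At 10 µM Oas3 was 3.05-fold higher in MYC high cells (log2 1.61, SE 0.42, adjusted p = 8.07e-04). At 200 µM, with 1 read in MYC high cells, the MYC low level exceeded the MYC high level by a ratio of 10.8 (exact 95% counting interval 1.70 to 449; log2 −2.23, SE 0.47, adjusted p = 5.38e-05). The ratio of 10 to 200 µM in MYC high cells was 60.3 (10.6 to 2404; log2 4.54, SE 0.47, adjusted p = 4.28e-11), and in MYC low cells the difference did not pass (0.70, adjusted p = 0.149), though it did without library 1 of MYC low cells on 10 µM (1.1, adjusted p = 0.0353). The interaction was 3.84 (SE 0.62, adjusted p = 1.82e-06).

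Oasl1, an OAS-like protein that in mice represses the translation of Irf7, was likewise highest in MYC high cells on 10 µM. It had 20.4, 18.2 and 17.2 normalized counts in MYC high cells on 10 µM and 3.43 and 0 in those at 200 µM. The counts of MYC low cells were 10.8, 2.85 and 4.41 at 10 µM and 1.95, 0 and 1.94 at 200 µM. With edgeR at the lower filter it was higher in MYC high cells on 10 µM (log2 1.60, adjusted p = 8.57e-04; 29.9% of all genes higher), and at 200 µM, with 3 and 4 reads in the MYC high and MYC low groups, the ratio of MYC high to MYC low was 1.25 (exact 95% counting interval 0.184 to 7.40). The ratio of 10 to 200 µM was 11.3 (3.66 to 56.3) in MYC high, against 4.61 (1.54 to 18.5) in MYC low cells, and edgeR called both rises (adjusted p = 9.28e-06 and 0.0151). Oasl2, its neighbour 26304 bases away, went the other way, with 10 reads in MYC low cells on 10 µM and 0 in all other groups. Against the floor of 3 reads it was 2.99-fold lower in MYC high than in MYC low cells on 10 µM. That fold leaves out the counting error of the 10 reads. Oas1a had 4 reads and Oas2 1 read over all libraries.

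Mx1 and Mx2, dynamin-like GTPases that trap viral particles, were read at a low level and were at 0 in both MYC high libraries at 200 µM. Mx1 had 1.02, 3.04 and 3.04 normalized counts in MYC high cells on 10 µM, 9.94, 8.54 and 11.5 in MYC low cells on 10 µM and 3.90, 2.05 and 3.87 in MYC low cells on 200 µM. It was lower in MYC high cells on 10 µM with edgeR at the lower filter (log2 −2.02, adjusted p = 0.00276; 29.9% of all genes lower). By that test Mx1 was higher at 10 than at 200 µM in MYC low cells (log2 1.57, adjusted p = 0.0160). Against the floor of 3 reads, Mx1 was 2.0-fold lower in MYC high than in MYC low cells on 200 µM. On that floor it was 1.43-fold higher at 10 than at 200 µM in MYC high cells. These 2 folds leave out the counting error of the 10 and 7 reads set against 0, so they are not lower bounds. Mx2 had 4.07, 5.06 and 2.02 normalized counts in MYC high cells on 10 µM, 3.62, 8.54 and 7.05 in MYC low cells on 10 µM and 2.92, 1.02 and 0.968 in MYC low cells on 200 µM. Against the same floor Mx2 was 2.25-fold higher at 10 than at 200 µM in MYC high cells, a fold with the same limit. With edgeR it was higher in MYC low cells as well (log2 1.88, adjusted p = 0.0287), while its MYC difference at 10 µM did not pass (log2 −0.76, adjusted p = 0.313).

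Bst2 and Ly6e, the most abundant members, moved in opposite directions with MYC at 10 µM. Bst2 (ENSMUSG00000046718) encodes tetherin, which holds budding viruses at the cell surface. It had 1609.6, 1749.9 and 1643 normalized counts in MYC high cells on 10 µM and 401 and 426 in those at 200 µM. Against these, MYC low cells had 906, 909.8 and 954 at 10 µM and 803, 723 and 775 at 200 µM. The groups did not overlap, and both MYC low groups lay between the MYC high groups. Bst2 was 1.80-fold higher in MYC high cells on 10 µM (log2 0.85, SE 0.050, adjusted p = 7.67e-18) and 1.85-fold lower at 200 µM (log2 −0.89, SE 0.056, adjusted p = 5.62e-17). It was 4.02-fold higher at 10 than at 200 µM in MYC high (adjusted p = 5.25e-28) and 1.20-fold higher in MYC low cells (adjusted p = 1.57e-05), with an interaction of 1.74 (SE 0.074, adjusted p = 3.09e-21).

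Ly6e (ENSMUSG00000022587), a lipid-anchored protein that restricts the entry of coronaviruses, had 2783, 3029 and 2821 normalized counts in MYC high cells on 10 µM and 914 and 954 in those at 200 µM. In MYC low cells it had 6758, 6787 and 6730.1 at 10 µM and 3292, 3203 and 3122 at 200 µM. No groups overlapped, and MYC high cells were below MYC low cells in each medium. Ly6e was 2.35-fold lower in MYC high cells on 10 µM (log2 −1.23, SE 0.035, adjusted p = 1.07e-27) and 3.43-fold lower at 200 µM (log2 −1.78, SE 0.039, adjusted p = 6.97e-31). It was 3.08-fold higher at 10 than at 200 µM in MYC high, against 2.11-fold higher in MYC low cells, and that difference passed as an interaction (log2 0.55, SE 0.052, adjusted p = 2.44e-11). Ifitm3, which blocks the fusion of viruses with endosomes, had 14 reads in each group at 10 µM, and at 200 µM it had 0 in the MYC high and 1 in the MYC low group. Against a floor of 3 reads it was 2.87-fold higher at 10 than at 200 µM in MYC high cells. That fold leaves out the counting error of the 14 reads. The ratio in MYC low cells was 12.9 (exact 95% counting interval 1.96 to 546).

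Rsad2 and Cmpk2 are neighbours on opposite strands whose starts lie 12752 bases apart. Rsad2 (ENSMUSG00000020641) encodes viperin, which makes a chain-terminating nucleotide, and it had 21.4, 27.3 and 21.3 normalized counts in MYC high cells on 10 µM and 1.14 and 3.18 in those at 200 µM. The MYC low libraries had 9.94, 12.3 and 6.17 at 10 µM and 4.88, 11.3 and 5.81 at 200 µM. As with Oas3 and Bst2, the MYC high groups enclosed the MYC low groups from above and below. Rsad2 was 2.38-fold higher in MYC high cells on 10 µM (log2 1.25, SE 0.41, adjusted p = 0.00634) and 2.63-fold lower at 200 µM (log2 −1.40, SE 0.45, adjusted p = 0.00615). The fall at 200 µM did not pass with DESeq2 (adjusted p = 0.0662) or without library 2 of MYC high cells on 200 µM (−0.91, adjusted p = 0.120). Rsad2 in MYC high cells was 8.08-fold higher at 10 than at 200 µM (adjusted p = 2.39e-07), in MYC low cells it did not pass (0.36, adjusted p = 0.454), and the interaction was 2.65 (adjusted p = 3.00e-04).

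The promoters of Oas3, Bst2 and Rsad2 are shown because these 3 genes were higher in MYC high cells on 10 µM and lower at 200 µM, and each of them holds the ISRE core in capitals. All lie on the minus strand of the genome, at chr5:120777610-120777909 for Oas3, chr8:71537423-71537722 for Bst2 and chr12:26456403-26456702 for Rsad2. The core starts 75 bases before the gene start in Oas3, lies in 2 overlapping copies 130 and 124 bases before it in Bst2, and lies on the reverse strand 120 bases before it in Rsad2. None of the 3 windows holds the E-box CACGTG.
Oas3: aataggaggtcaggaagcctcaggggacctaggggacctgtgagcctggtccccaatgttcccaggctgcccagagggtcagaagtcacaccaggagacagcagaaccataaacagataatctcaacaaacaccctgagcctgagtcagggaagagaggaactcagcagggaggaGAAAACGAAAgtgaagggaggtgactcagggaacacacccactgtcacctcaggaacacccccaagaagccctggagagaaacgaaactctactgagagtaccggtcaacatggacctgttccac
Bst2: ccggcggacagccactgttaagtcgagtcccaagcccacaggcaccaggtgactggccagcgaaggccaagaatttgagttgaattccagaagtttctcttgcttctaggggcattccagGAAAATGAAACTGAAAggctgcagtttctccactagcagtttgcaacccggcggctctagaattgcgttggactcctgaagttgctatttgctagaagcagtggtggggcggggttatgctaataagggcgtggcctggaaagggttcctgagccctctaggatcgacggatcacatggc
Rsad2: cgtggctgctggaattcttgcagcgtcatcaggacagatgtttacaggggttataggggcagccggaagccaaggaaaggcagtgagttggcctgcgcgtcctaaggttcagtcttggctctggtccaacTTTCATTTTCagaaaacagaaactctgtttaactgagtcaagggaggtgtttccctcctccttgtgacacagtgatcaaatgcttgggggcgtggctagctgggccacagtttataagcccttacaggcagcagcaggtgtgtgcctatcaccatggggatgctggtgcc
The ISRE core was also found in Stat2 and Ifih1, which were lower in MYC high cells in both media.

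Cmpk2 (ENSMUSG00000020638), a mitochondrial nucleotide kinase, had 31.6, 21.3 and 17.2 normalized counts in MYC high cells on 10 µM and 4.57 and 0 in those at 200 µM. MYC low cells gave 23.5, 19 and 20.3 at 10 µM and 10.7, 6.14 and 5.81 at 200 µM. The groups at 10 µM overlapped and both lay above those at 200 µM. Cmpk2 was 10.0-fold higher at 10 than at 200 µM in MYC high (log2 3.32, SE 0.48, adjusted p = 1.21e-07) and 2.63-fold higher in MYC low cells (log2 1.40, SE 0.43, adjusted p = 0.00560). Without library 3 of MYC high cells on 200 µM, which had 0, the first of these was 2.09 on the log2 scale. Its MYC difference did not pass at 10 µM (0.11, 95% interval −0.76 to 0.99). At 200 µM it was 3.51-fold lower in MYC high cells (log2 −1.81, SE 0.48, adjusted p = 0.00106) and the interaction was 1.93 (adjusted p = 0.0105). DESeq2 called neither of these (adjusted p = 0.0529 and 0.0693), and limma with no filter did not call the interaction (adjusted p = 0.0703). Without library 3 of MYC high cells on 200 µM the MYC difference was −0.57 and the interaction 0.69, and without library 2 they were −3.05 and 3.17.

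Samd9l (ENSMUSG00000047735), a cytoplasmic inhibitor of viral translation and of cell growth, changed widely in all 4 comparisons. It had 389, 357 and 379.7 normalized counts in MYC high cells on 10 µM and 42.3 and 53.0 in those at 200 µM. Levels in MYC low cells were 1659, 1714 and 1726 at 10 µM and 455, 517 and 466 at 200 µM. No groups overlapped. Samd9l was 4.52-fold lower in MYC high cells on 10 µM (log2 −2.18, SE 0.072, adjusted p = 1.61e-25) and 9.91-fold lower at 200 µM (log2 −3.31, SE 0.081, adjusted p = 1.76e-29). It was 7.78-fold higher at 10 than at 200 µM in MYC high, against 3.55-fold higher in MYC low cells, with an interaction of 1.13 (SE 0.11, adjusted p = 2.22e-11).

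Xaf1 (ENSMUSG00000040483), a protein that promotes cell death by opposing XIAP, was far lower in MYC high than in MYC low cells. It had 5.09, 1.01 and 3.04 normalized counts in MYC high cells on 10 µM and 1.14 and 0 in those at 200 µM. The counts of MYC low cells were 26.2, 26.6 and 30.9 at 10 µM and 36.1, 26.6 and 31.9 at 200 µM. All MYC high libraries lay below all MYC low libraries, and the 2 media overlapped within each MYC state. At 10 µM it was 7.84-fold lower in MYC high cells (log2 −2.97, SE 0.41, adjusted p = 5.35e-08), and at 200 µM, with 1 read in MYC high cells, the MYC low level exceeded the MYC high level by a ratio of 57.5 (exact 95% counting interval 10.1 to 2294; log2 −4.46, SE 0.46, adjusted p = 5.86e-11). The ratio of 10 to 200 µM in MYC high cells was 5.53 (0.767 to 243), so the call of a rise there (log2 1.33, SE 0.46, adjusted p = 0.00972) rests on few reads, and edgeR did not make it (adjusted p = 0.0758). In MYC low cells methionine did not change it past the threshold (−0.17, 95% interval −1.0 to 0.67). The interaction (log2 1.49, SE 0.62, adjusted p = 0.0363) did not pass with edgeR (adjusted p = 0.0725) or DESeq2 (adjusted p = 0.147).

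Ifi35 (ENSMUSG00000010358), a leucine zipper protein induced by interferon, had 174, 177 and 152 normalized counts in MYC high cells on 10 µM and 136 and 102 in those at 200 µM. Against these, MYC low cells had 251, 187 and 211 at 10 µM and 181, 192 and 212 at 200 µM. All MYC high libraries lay below all MYC low libraries. Ifi35 was 1.65-fold lower in MYC high cells on 200 µM (adjusted p = 4.42e-06) and 1.28-fold lower at 10 µM (adjusted p = 0.00562), the second of which did not pass without library 1 of MYC low cells on 10 µM (−0.24, adjusted p = 0.0807). The rise of 1.42-fold at 10 µM in MYC high cells (adjusted p = 5.85e-04) did not pass without library 3 of MYC high cells on 200 µM (0.30, adjusted p = 0.0705), and in MYC low cells the difference did not pass (0.14, adjusted p = 0.298). Of the exon bases of Ifi35, 16.8% overlap Gm11626 on the opposite strand, which averaged 32.2 to 79.8 normalized counts by group. Ifi44 was at 0 throughout, and Rtp4, a receptor transporter protein, had 4 reads.

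Parp9, Dtx3l and Parp14 encode ADP-ribosylation enzymes and a ubiquitin ligase, and PARP9 and DTX3L work as 1 complex. Parp14 (ENSMUSG00000034422) had 12.2, 11.1 and 10.1 normalized counts in MYC high cells on 10 µM and 4.57 and 3.18 in those at 200 µM. In MYC low cells it had 37.1, 34.2 and 37.0 at 10 µM and 14.6, 20.5 and 24.2 at 200 µM. The groups did not overlap, and MYC high cells were lower in each medium. Parp14 was 3.05-fold lower in MYC high cells on 10 µM (log2 −1.61, SE 0.30, adjusted p = 1.34e-05) and 4.22-fold lower at 200 µM (log2 −2.08, SE 0.34, adjusted p = 1.14e-06). It was 2.51-fold higher at 10 than at 200 µM in MYC high (adjusted p = 6.40e-04) and 1.82-fold higher in MYC low cells (adjusted p = 0.0141), the second of which did not pass without library 1 of MYC low cells on 200 µM (0.67, adjusted p = 0.0863).

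Parp9 (ENSMUSG00000022906) had 56.0, 41.5 and 34.4 normalized counts in MYC high cells on 10 µM and 18.3 and 7.43 in those at 200 µM. The MYC low libraries had 48.8, 63.6 and 51.1 at 10 µM and 30.2, 49.1 and 49.4 at 200 µM. Dtx3l (ENSMUSG00000049502) had 40.7, 26.3 and 43.5 in MYC high cells on 10 µM and 16 and 14.9 in those at 200 µM. MYC low cells gave 36.2, 49.3 and 56.4 at 10 µM and 30.2, 30.7 and 36.8 at 200 µM. For both genes the MYC high libraries at 200 µM were below all others, while the remaining groups overlapped. Parp9 was 3.36-fold lower in MYC high cells on 200 µM (adjusted p = 9.77e-07), a value of −1.15 in place of −1.75 (log2) without library 3 of that group, and Dtx3l was 2.04-fold lower (adjusted p = 5.92e-04). At 10 µM neither passed, with 95% intervals of the log2 difference of −0.84 to 0.19 for Parp9 and −0.83 to 0.11 for Dtx3l. Parp9 in MYC high cells was 3.46-fold and Dtx3l 2.26-fold higher at 10 than at 200 µM (adjusted p = 6.04e-07 and 1.15e-04). Parp9 did not pass in MYC low cells (0.36, adjusted p = 0.220), and Dtx3l did not pass with limma (0.51, adjusted p = 0.0583) but did with edgeR (0.54, adjusted p = 0.0258), a pseudocount of 5 (adjusted p = 0.0429), library totals (adjusted p = 0.0499) and without library 1 of MYC low cells on 10 µM (0.69, adjusted p = 0.0231). The interaction of Parp9 (log2 1.43, SE 0.38, adjusted p = 0.00147) did not pass without library 3 of MYC high cells on 200 µM (0.83, adjusted p = 0.0536), and that of Dtx3l did not pass (0.67, adjusted p = 0.0969). The starts of this head-to-head pair lie 681 bases apart and the genes share 458 exon bases, 9.40% of those of Parp9 and 8.0% of those of Dtx3l, so their counts may share reads.

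The rest of the pathway was described with lists written from general knowledge. No list was tested against the shares of all tested genes, which hold for each list below. In MYC high cells 35.8% were lower and 35.7% higher at 10 µM, and 37.6% lower and 36.8% higher at 200 µM. At 10 against 200 µM methionine 37.9% were higher and 37.9% lower in MYC high cells. In MYC low cells 29.4% were higher and 29.9% lower. Of 21 interferon ligand genes none passed the filter, 17 had 0 reads in all libraries, and Ifnb1 had 1 read. Receptors and Janus kinases were well expressed, and all 9 passed the filter. In MYC high cells 8 of the 9 were lower and 1 was higher at 10 µM (median log2 −0.22), and all 9 were lower at 200 µM (median −0.93). Ifngr1, a chain of the interferon gamma receptor, averaged 654 ± 44.5 normalized counts in MYC high, against 2482 ± 27.8 in MYC low cells on 10 µM (SD, n = 3 each; log2 −1.93, SE 0.046, adjusted p = 5.20e-30). Ifnar1, a chain of the type I receptor, averaged 924 ± 17.2 in MYC high, against 1305 ± 36.6 in MYC low cells on 10 µM (SD, n = 3 each; log2 −0.50, SE 0.048, adjusted p = 8.55e-12). With methionine at 10 µM 6 were higher and 1 was lower in MYC high cells, and 5 were higher and 2 lower in MYC low cells. Tyk2, a kinase of the type I receptor, averaged 508 ± 23.8 at 10 µM (SD, n = 3) and 163 ± 6.23 at 200 µM (SD, n = 2) in MYC high cells (log2 1.63, SE 0.070, adjusted p = 4.92e-22).

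Of 11 STAT and IRF family genes outside the set 8 were tested. At 10 µM 4 were lower and 1 was higher in MYC high cells, and at 200 µM 2 were lower and 4 higher. Stat3, which interleukin 6 activates in hepatocytes, averaged 958 ± 49.4 normalized counts in MYC high, against 1273 ± 39.0 in MYC low cells on 10 µM (SD, n = 3 each; log2 −0.41, SE 0.048, adjusted p = 1.12e-09). At 200 µM Stat3 averaged 673 ± 20.5 in the MYC high libraries (SD, n = 2) and 911 ± 34.5 in the MYC low libraries (SD, n = 3; log2 −0.43, SE 0.053, adjusted p = 3.49e-09). The methionine comparison had 2 of these 8 higher and 5 lower at 10 µM in MYC high cells, and 2 higher and 3 lower in MYC low cells.

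Of 23 genes of nucleic acid sensing and its signalling 17 were tested, and they moved both ways, as did all tested genes. In MYC high cells 5 were higher and 9 lower at 10 µM, and 6 were higher and 9 lower at 200 µM. Between media 8 were higher and 4 lower at 10 µM in MYC high cells, and 9 were higher and 4 lower in MYC low cells. Ikbke, a kinase that activates IRF3 and IRF7, averaged 429 ± 9.40 normalized counts at 10 µM (SD, n = 3) and 71.7 ± 8.43 at 200 µM (SD, n = 2) in MYC high cells (log2 2.57, SE 0.084, adjusted p = 9.91e-26). Adar, which edits double-stranded RNA and limits its sensing, went the other way, at 416 ± 13.1 at 10 µM (SD, n = 3) and 967 ± 24.8 at 200 µM (SD, n = 2) in MYC high cells (log2 −1.22, SE 0.057, adjusted p = 9.29e-21). Of 15 negative regulators 13 were tested, with 6 higher and 4 lower in MYC high cells on 10 µM and 3 higher and 8 lower at 200 µM. Between media 9 were higher and 3 lower at 10 µM in MYC high cells, and 7 were higher and 3 lower in MYC low cells. Ptpn6, a phosphatase that acts on Janus kinases, averaged 95.7 ± 10.4 at 10 µM (SD, n = 3) and 10.4 ± 0.231 at 200 µM (SD, n = 2) in MYC high cells (log2 3.07, SE 0.24, adjusted p = 5.15e-14).

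A further 71 genes known to be induced by interferon were listed, of which 39 passed the filter. In MYC high cells 25 were lower and 9 higher at 10 µM (median log2 −0.48), and 26 were lower and 8 higher at 200 µM (median −0.89). Of all tested genes 35.8% were lower and 35.7% higher at 10 µM, and 37.6% were lower and 36.8% higher at 200 µM. At 10 µM against 200 µM methionine 22 were higher and 5 lower in MYC high cells (median 0.35), and 15 were higher and 10 lower in MYC low cells (median 0.0985). Lgals3bp, a secreted glycoprotein, was lower in MYC high cells on 10 µM (log2 −2.81, SE 0.11, adjusted p = 8.14e-24) and at 200 µM (log2 −4.92, SE 0.12, adjusted p = 1.06e-29). Isg20, an exonuclease that degrades viral RNA, was higher in MYC high cells on 10 µM (log2 2.55, SE 0.073, adjusted p = 1.71e-27). Both the members and these further genes had more tested genes lower than higher in MYC high cells in each medium. The medians of the 2 lists were not tested against each other. Both lists were chosen with earlier results of these data known, so neither is an independent check of the other. A gene could also pass the filter through its level in MYC low cells.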

How the data were processed

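RNA of 11 EC4 libraries was sequenced after poly(A) selection with a NEBNext Ultra II kit, per the labels' protocols. Tools listed in the submitters' processing notes, in no stated role or order, are STAR, HTSeq, SAMtools, fastp, FastQC and DESeq2, with the build GRCm39. The annotation release and strand setting were not given in the sources used. The authors deposited a table of normalized counts, a signal per gene that equals whole reads divided by 1 factor per library. Whole reads were recovered from it for 100% of the values within 0.001 of a whole number.

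Log2 of the deposited normalized count plus 1 was tested with limma 3.58.1 in R 4.3.3 (1 mean per group, all 11 libraries, trended empirical Bayes), for the 12909 genes with a mean of at least 10, with Benjamini-Hochberg adjustment over them in each comparison and a threshold of 0.05. Recovered reads were tested with edgeR 4.0.16 and DESeq2 1.42.0 as alternatives, and other filters, pseudocounts, scalings, a replicate block and leaving out each library were tried. Ratios of reads have exact 95% counting intervals, and a group at 0 is set at a floor of 3 reads over the group. Folds against that floor leave out the counting error of the other group. Symbols and exon lengths come from GENCODE M21 (52083 of 55416 identifiers matched) and promoters from RefSeq. All 34 members are described by role, and of each other list up to 4 tested genes with the smallest adjusted p. The members and lists were chosen with earlier results of these data known.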

Additional observations from a re-analysis of the deposited data

Results flagged for a closer look

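The response to methionine, 10 minus 200 µM, differed between MYC high and MYC low cells for 10 of the 19 tested members, each by limma's interaction term with Benjamini-Hochberg adjustment over all 12909 genes, of which 31.0% passed with a positive and 29.4% with a negative sign. The difference of the responses, MYC high minus MYC low, was 3.84 on the log2 scale for Oas3, 2.65 for Rsad2, 1.93 for Cmpk2, 1.74 for Bst2 and 1.71 for Ifih1. It was 1.49 for Xaf1, 1.43 for Parp9, 1.25 for Ifit2, 1.13 for Samd9l and 0.55 for Ly6e. All 10 are positive. Among the tested members edgeR called 9 positive interactions and DESeq2 called 7. The estimates for Oas3 and Xaf1 in MYC high cells rest on 1 read at 200 µM, and those for Cmpk2, Parp9 and Xaf1 did not pass without library 3 of MYC high cells on 200 µM. For Xaf1 the methionine response in MYC low cells was −0.17, so it is the one of the 10 whose estimates have opposite signs in the MYC states. Groups of 2 or 3 libraries are too small for a test of single outlying libraries.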

How the results depend on the processing

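The precision is set by 2 or 3 libraries per group and, for most members, by few reads. Over 23 alternatives and 95 differences of single members, 2022 of 2111 recomputed values kept their direction and side of the threshold, 78 crossed the threshold and 11 changed sign. Changes whose cause is fewer genes tested came with the filter: with a mean of at least 50, which left 8 members, 2 were higher and 6 lower in MYC high cells on 10 µM, 7 were lower at 200 µM, 6 were higher at 10 than at 200 µM in MYC high cells, and 3 had a larger response in MYC high cells. In MYC low cells 10 of 25 members were higher at 10 µM with a mean of at least 1, 11 of 32 with no filter and 11 of 25 with edgeR at a mean of at least 1, an alternative chosen after seeing the data. With no filter 1 member, Oasl2, had a negative interaction (−1.96, adjusted p = 0.00588). Leaving out each library gave 4 higher and 11 to 12 lower in MYC high cells on 10 µM, 1 higher and 16 to 17 lower at 200 µM, 13 to 16 higher at 10 µM methionine in MYC high cells, 5 to 8 in MYC low cells, and 7 to 11 positive interactions, with 0 lower in the last 3. No difference of the 11 that changed sign had passed: Irf7 in MYC high cells across media was 0.0025 with library totals, 0.0746 with edgeR at either filter, 0.0757 with DESeq2, and 0.3333 and 0.0076 without library 2 of the 10 or the 200 µM group. The interaction of Usp18 was −0.0293 with a pseudocount of 5 and −0.1107 without library 2 of MYC high cells on 200 µM, that of Trim25 was 0.0022 without library 2 of MYC high cells on 10 µM, Irf9 in MYC low cells across media was −0.0297 without library 2 at 10 µM, and Cmpk2 across MYC states at 10 µM was −0.117 without library 1 of MYC high cells. With each library left out in turn these 5 ranged over −0.361 to 0.3333 (Irf7), −0.1107 to 0.5639 (Usp18), −0.0711 to 0.0022 (Trim25), −0.0297 to 0.1245 (Irf9) and −0.117 to 0.3025 (Cmpk2). The cause was not tested. The replicate numbers did not pair the libraries: over 15 same-numbered pairs the correlation of deviations from the group mean was −0.049 to 0.0257, and 2 of 11 libraries matched best with their own number. With the replicate block 4 members were higher and 12 lower in MYC high cells on 10 µM, 1 higher and 17 lower at 200 µM, 15 higher at 10 µM methionine in MYC high cells, 6 in MYC low cells, and 9 interactions were positive.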

Other observations

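Of 20 GTPases and chemokines that interferon gamma induces 5 passed the filter, Gbp4, Gbp9, Igtp, Irgm1 and Irgm2. All 5 were lower in MYC high cells on 10 µM (median log2 −1.86), beside 35.8% of all tested genes, and at 200 µM (median −1.94), beside 37.6%. A gene could pass the filter through its level in MYC low cells, so these counts do not speak for the other 15. Gbp9, a guanylate-binding protein, averaged 11.5 ± 3.07 normalized counts in MYC high, against 246 ± 6.64 in MYC low cells on 10 µM (SD, n = 3 each; log2 −4.34, SE 0.27, adjusted p = 4.44e-17). Irgm2, an immunity-related GTPase, averaged 22 ± 9.69 in MYC high, against 77.8 ± 9.69 in MYC low cells on 10 µM (SD, n = 3 each; log2 −1.86, SE 0.24, adjusted p = 1.68e-08). At 10 against 200 µM methionine 2 of the 5 were higher in MYC high, against 3 in MYC low cells, and 0 were lower.

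Of 13 genes of MHC class I presentation 12 were tested, and they moved both ways with MYC, with 4 higher and 6 lower in MYC high cells on 10 µM and 1 higher and 7 lower at 200 µM. Of all tested genes 35.7% were higher and 35.8% lower at 10 µM, and 36.8% were higher and 37.6% lower at 200 µM. Between media 37.9% were higher and 37.9% lower at 10 µM in MYC high cells, and 29.4% and 29.9% in MYC low cells. B2m, the light chain of MHC class I, averaged 2504 ± 63.0 normalized counts in MYC high, against 4342 ± 74.3 in MYC low cells on 10 µM (SD, n = 3 each; log2 −0.79, SE 0.033, adjusted p = 1.28e-22). With methionine at 10 µM 9 were higher and 1 lower in MYC high cells, and 7 were higher and 0 lower in MYC low cells. Of 14 targets of NF-kappaB 10 were tested, with 3 higher and 6 lower in MYC high cells on 10 µM, and 4 higher and 4 lower at 200 µM. At 10 against 200 µM methionine 4 of them were higher and 5 lower in MYC high cells, and 3 were higher and 1 lower in MYC low cells.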
